A study of Mus musculus with 24 samples.

Results

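The 8 genes Esr1, Pgr, Foxa1, Gata3, Prom1, Cited1, Msx2 and Tnfsf11 form the steroid receptor and hormone-sensing programme of the mammary luminal epithelium, and they were followed here in 8 sorted populations of the mouse mammary gland. Each gene was read by the probe set that carries its symbol alone, and each of the 8 had exactly 1 such probe set, among 19937 genes measured. The rule that chose the genes names members of the hormone-sensing lineage and takes no measured difference between groups as a criterion. The choice was nevertheless made with earlier results of these data known, so it was not independent of them. RNA was hybridised to Affymetrix mouse Gene 1.0 ST arrays, 24 in all, with 3 arrays in each population.

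All mice, on a mixed FVB and C57BL6 background, carried Lgr5-creERT2, a tamoxifen-activated Cre recombinase driven by the Lgr5 gene, and all were examined 4 weeks after tamoxifen. Mutant mice additionally carried a PIK3CA H1047R transgene, an oncogenic form of the catalytic subunit of phosphoinositide 3-kinase, and control mice did not. Each sample was the RNA of 250 sorted cells from pooled glands of 2 to 3 estrus-synchronised mice, amplified before labelling, and each population was collected in 3 independent sortings. The mutant populations were luminal Sca1-positive GFP-positive, luminal Sca1-negative GFP-positive, basal GFP-positive and basal GFP-negative cells. The control populations were luminal Sca1-positive GFP-negative, luminal Sca1-negative GFP-negative, basal GFP-positive and basal GFP-negative cells. GFP marked cells with Lgr5 expression, transgene expression or both, so in the luminal comparisons mutant genotype and GFP gate changed together and their effects cannot be told apart. In control mice the GFP-positive basal cells were the cells that expressed Lgr5. In mutant mice that gate could also hold cells with transgene expression. The genotype comparison in basal GFP-positive cells therefore need not set the same kind of cell against itself.

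Oestrogen and progesterone act on the mammary gland through a minority of luminal cells that carry their receptors. Esr1 encodes oestrogen receptor alpha, a ligand-dependent transcription factor, and Pgr, the progesterone receptor gene, is one of its classical targets. Foxa1 is a pioneer factor that opens chromatin for the oestrogen receptor, Gata3 is a zinc-finger factor needed for luminal differentiation, and Cited1 is a coactivator that binds the oestrogen receptor. The receptor-positive cells signal to their neighbours through secreted factors, among them RANK ligand, the product of Tnfsf11. Prom1 (CD133) is a membrane glycoprotein used in mice to mark receptor-positive luminal cells, and Msx2 is a homeobox transcription factor.

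Values are log2 expression per array, so a difference of 1 is a doubling, and levels of one gene are not set against levels of another. Differences were tested with limma in a single model of the 8 population means, and a gene was called where its p-value, adjusted by the Benjamini-Hochberg method over all 19937 genes, was under 0.05. The files hold no detection calls. The median of all gene values, 4.60, served as a guide to dim signal. Pooled mice and the number of arrays limit precision, and fewer cells of a kind cannot be told apart from less RNA per cell in bulk samples.

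The sorted populations carried the markers of their gates. The mean of 8 luminal markers, which include keratins 8, 18 and 19, lay between 11.14 and 11.63 in the luminal arrays of both genotypes and between 7.76 and 9.17 in the basal arrays. The mean of 10 basal markers was at least 10.35 in every basal array. Among luminal arrays it was 6.36 to 6.88 in mutant Sca1-negative cells, against 5.18 to 5.38 in control Sca1-negative cells. In Sca1-positive cells, mutant replicate 1 stood apart at 6.58, while mutant replicates 2 and 3 were at 5.28 and 5.34, against 5.30 to 5.47 in control cells. The mean of 8 luminal progenitor markers was 7.66 to 9.21 in mutant Sca1-positive cells, against 6.59 to 6.999 in control Sca1-positive cells. Of 9 leukocyte markers, 8 were dim in every population, and the means of the endothelial and pericyte markers were at most 4.33 in every array. The Pik3ca probe set, for which the files do not say whether it reads the transgene, gave 7.62 to 7.79 in mutant Sca1-positive cells, against 6.88 to 7.38 in control Sca1-positive cells. It gave 7.83 to 8.02 in mutant Sca1-negative cells, against 6.80 to 7.18 in control Sca1-negative cells, with no overlap in either gate. The Sca1 gene itself, Ly6a, was not analysed here.

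Promoters of the genes were taken from RefSeq on build GRCm38.p6, 250 bases before to 50 bases after each annotated start, and all 8 genes were matched, with 12 promoters in all. Those of the receptors, of their pioneer factor and of Prom1 are shown because 6 of the 8 genes moved together across the populations. In addition, Prom1 differed between the mutant and control luminal cells. The strings searched on both strands were the oestrogen receptor half-site GGTCA, the progesterone receptor half-site AGAACA, the forkhead string TGTTTAC and the GATA strings AGATAA and TGATAA, together with the full palindromic oestrogen and progesterone response elements. Capitals mark each match, also where it lies on the opposite strand, and each sequence runs 5′ to 3′ on the strand of its gene.
Esr1 promoter 1, chr10:4611739-4612038, plus strand: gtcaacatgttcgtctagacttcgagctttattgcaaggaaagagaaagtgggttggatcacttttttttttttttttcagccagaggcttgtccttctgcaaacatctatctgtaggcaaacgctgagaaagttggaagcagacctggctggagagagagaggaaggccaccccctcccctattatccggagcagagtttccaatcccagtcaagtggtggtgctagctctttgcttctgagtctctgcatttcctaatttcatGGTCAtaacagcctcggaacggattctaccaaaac
Esr1 promoter 2, chr10:4709908-4710207, plus strand: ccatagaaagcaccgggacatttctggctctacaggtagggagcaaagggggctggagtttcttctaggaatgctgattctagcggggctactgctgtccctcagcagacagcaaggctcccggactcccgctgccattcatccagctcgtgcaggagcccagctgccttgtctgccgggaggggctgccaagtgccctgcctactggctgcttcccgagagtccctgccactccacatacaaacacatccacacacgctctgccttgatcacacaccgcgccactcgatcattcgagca
Pgr promoter, chr9:8899583-8899882, plus strand: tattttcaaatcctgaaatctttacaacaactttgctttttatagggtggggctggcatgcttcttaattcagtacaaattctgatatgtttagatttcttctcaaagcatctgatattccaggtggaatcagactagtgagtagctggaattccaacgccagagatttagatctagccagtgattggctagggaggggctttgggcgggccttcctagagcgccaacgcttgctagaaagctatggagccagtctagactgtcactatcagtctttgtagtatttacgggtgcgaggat
Foxa1 promoter, chr12:57546062-57546361, minus strand: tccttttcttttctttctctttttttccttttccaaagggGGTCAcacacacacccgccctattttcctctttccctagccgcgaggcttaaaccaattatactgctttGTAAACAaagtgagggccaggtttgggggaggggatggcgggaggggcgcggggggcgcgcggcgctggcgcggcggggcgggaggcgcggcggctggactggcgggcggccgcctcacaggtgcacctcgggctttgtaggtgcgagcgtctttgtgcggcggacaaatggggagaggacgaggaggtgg
Prom1 promoter 1, chr5:44101687-44101986, minus strand: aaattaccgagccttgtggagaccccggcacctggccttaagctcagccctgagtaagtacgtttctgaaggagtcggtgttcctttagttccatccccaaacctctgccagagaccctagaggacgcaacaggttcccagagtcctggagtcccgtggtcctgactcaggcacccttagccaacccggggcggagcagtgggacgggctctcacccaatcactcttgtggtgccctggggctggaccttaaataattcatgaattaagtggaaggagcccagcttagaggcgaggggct
Prom1 promoter 2, chr5:44094719-44095018, minus strand: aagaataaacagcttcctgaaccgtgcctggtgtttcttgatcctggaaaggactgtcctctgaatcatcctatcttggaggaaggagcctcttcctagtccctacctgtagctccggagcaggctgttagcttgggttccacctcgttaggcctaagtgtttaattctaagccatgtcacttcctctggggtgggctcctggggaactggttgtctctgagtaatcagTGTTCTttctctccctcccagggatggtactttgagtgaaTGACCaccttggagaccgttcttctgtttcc
The Foxa1 promoter held the forkhead string at position -141 from the start, on the opposite strand, and GGTCA at position -210. Esr1 promoter 1 held GGTCA at position 16. Prom1 promoter 2 held GGTCA at position 20 and AGAACA at position -21, both on the opposite strand, while Prom1 promoter 1, Esr1 promoter 2 and the Pgr promoter held none of the strings. These matches are common in promoters. Of 32851 RefSeq promoters, 40.5% held GGTCA, 19.0% held AGAACA, 3.65% held TGTTTAC, 11.2% held AGATAA and 9.05% held TGATAA. The full oestrogen response element was found in 0.07% of them and the full progesterone response element in 0.0091%, and none of the 12 promoters held either. GC content was 46.3% in Esr1 promoter 1, 59.3% in Esr1 promoter 2, 43.7% in the Pgr promoter and 62.3% in the Foxa1 promoter, against a median of 52.7% over all promoters.

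Across the 8 populations, 6 of the 8 genes had their highest population mean in luminal Sca1-positive cells, and Gata3 and Tnfsf11 did not. The span between the highest and the lowest population mean was 5.74 for Cited1, 5.40 for Foxa1, 4.73 for Prom1, 3.92 for Pgr, 3.78 for Msx2 and 2.46 for Esr1. It was 1.12 for Gata3 and 0.51 for Tnfsf11. Over the 8 population means, the correlation between any pair of the 6 genes lay between 0.858, for Foxa1 with Prom1, and 0.9736, for Foxa1 with Cited1. These points share arrays and the large contrast between luminal and basal cells, and no test was made. After each population mean was subtracted, the correlations among the same 6 genes over the 24 arrays ran from -0.4475, for Esr1 with Msx2, to 0.5343, for Foxa1 with Prom1.

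**Figure D1:**
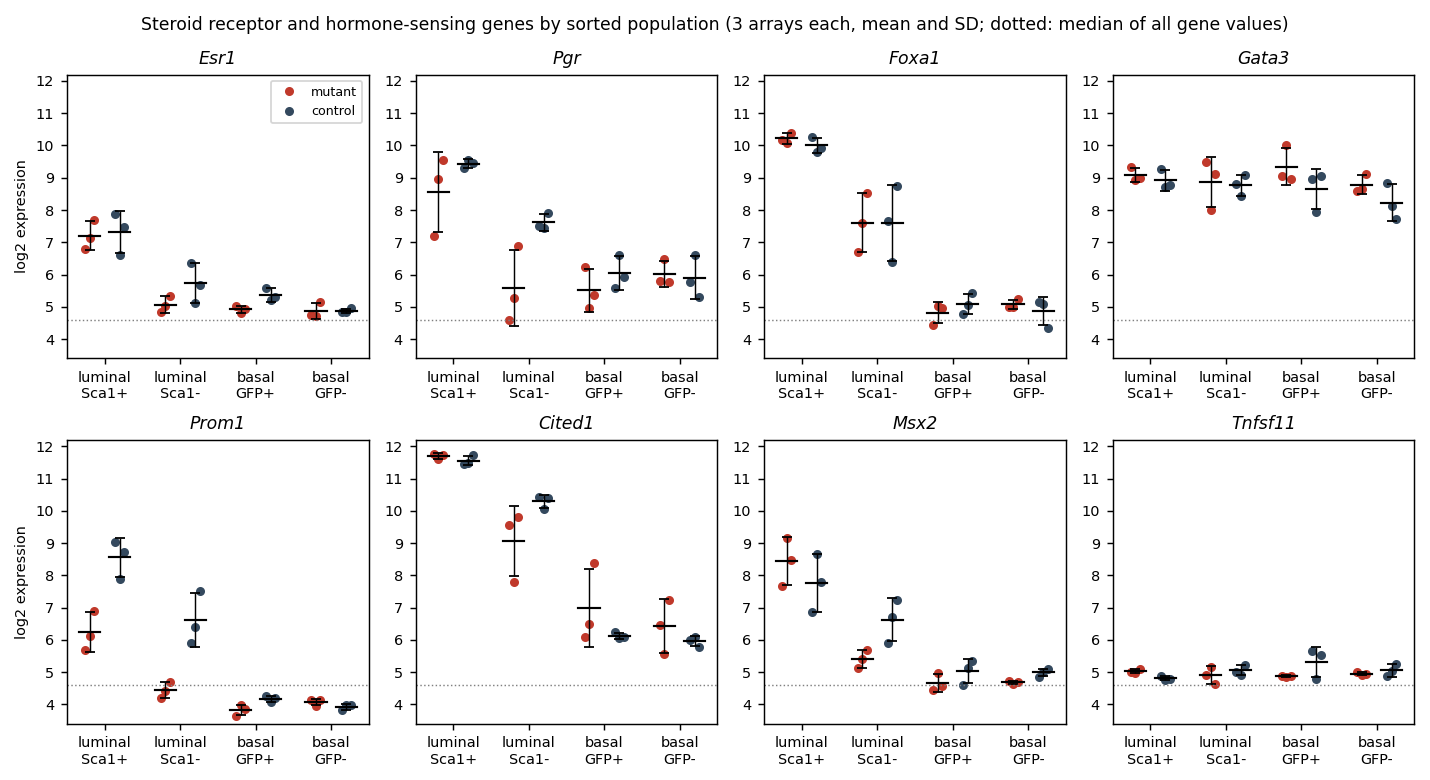
Log2 expression of each of the 8 genes in the 24 arrays, by sorted population, with mutant arrays left of control arrays. Points are arrays, bars are means with SD (n = 3), and the dotted line is the median of all gene values, 4.60. In Esr1, Foxa1 and Cited1 all 6 Sca1-positive luminal arrays lie above the other arrays, in Pgr, Msx2 and Prom1 some overlap Sca1-negative arrays, and in Prom1 the mutant luminal arrays lie below the control arrays of the same gate.

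Among the receptors, Esr1 (mouse chromosome 10, 4611989 to 5005633) read 6.79, 7.13 and 7.69 in mutant Sca1-positive cells, against 7.89, 6.62 and 7.47 in control Sca1-positive cells. It read 4.84, 5.01 and 5.35 in mutant Sca1-negative cells, against 6.37, 5.13 and 5.68 in control Sca1-negative cells. All 6 Sca1-positive arrays thus lay above all 6 Sca1-negative arrays, and the genotypes overlapped within each gate. In basal cells Esr1 stayed between 4.72 and 5.60. In the order of its population means, mutant Sca1-positive (7.20) and control Sca1-positive (7.33) cells overlapped at the top, a gap separated them from control Sca1-negative (5.73), and every later neighbour overlapped the next down to control basal GFP-negative (4.87).

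Pgr (chromosome 9, 8898900 to 8968611) read 7.18, 8.96 and 9.54 in mutant Sca1-positive cells, against 9.30, 9.56 and 9.45 in control Sca1-positive cells. In Sca1-negative cells it read 4.58, 5.28 and 6.89 in mutant mice, against 7.49, 7.43 and 7.92 in control mice. The mutant Sca1-negative arrays all lay below the control arrays of that gate and straddled the range of basal cells, where Pgr ran from 4.95 to 6.62. The lowest mutant Sca1-positive array was replicate 1, which also had the raised basal markers.

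Foxa1 (chromosome 12, 57540628 to 57548029) formed the clearest staircase. It read 10.17, 10.09 and 10.40 in mutant Sca1-positive cells, against 10.28, 9.81 and 9.93 in control Sca1-positive cells, and 6.70, 7.60 and 8.53 in mutant Sca1-negative cells, against 7.64, 6.38 and 8.75 in control Sca1-negative cells. The 12 basal arrays lay between 4.35 and 5.41. The 3 levels did not overlap one another, and within each level the genotypes overlapped.

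Gata3 (chromosome 2, 9857078 to 9887953) had no such staircase. Its population means ran from 9.35 in mutant basal GFP-positive cells to 8.23 in control basal GFP-negative cells, and each overlapped its neighbour in that order. Single arrays lay between 7.71 and 10.02, so Gata3 was well above the median of all genes in basal and luminal cells alike.

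Among the other genes, Cited1 (chromosome X, 102247378 to 102252181) read 11.76, 11.59 and 11.72 in mutant Sca1-positive cells, against 11.46, 11.49 and 11.72 in control Sca1-positive cells. In Sca1-negative cells it read 9.55, 7.81 and 9.80 in mutant mice, against 10.43, 10.07 and 10.39 in control mice, with no overlap. Basal cells read between 5.57 and 7.24, apart from 1 mutant basal GFP-positive array at 8.37. Msx2 (chromosome 13, 53466881 to 53472780) read 7.67, 9.17 and 8.48 in mutant Sca1-positive cells, against 6.86, 8.65 and 7.78 in control Sca1-positive cells. In Sca1-negative cells it read 5.13, 5.40 and 5.69 in mutant mice, against 5.90, 6.72 and 7.22 in control mice. The genotypes overlapped in the Sca1-positive gate and not in the Sca1-negative gate, and Msx2 in basal cells lay between 4.44 and 5.33.

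Prom1 (chromosome 5, 43993621 to 44102047) read 5.70, 6.13 and 6.90 in mutant Sca1-positive cells, against 9.04, 7.89 and 8.73 in control Sca1-positive cells. In Sca1-negative cells it read 4.21, 4.41 and 4.70 in mutant mice, against 5.91, 6.39 and 7.53 in control mice. In neither gate did the genotypes overlap. Mutant Sca1-positive cells (mean 6.24) were next in order to control Sca1-negative cells (6.61) and overlapped them. In basal cells Prom1 lay between 3.64 and 4.26, under the median of all gene values. Tnfsf11 (chromosome 14, 78277446 to 78308043) lay between 4.62 and 5.65 in all 24 arrays, and every neighbour in the order of its means overlapped. The population means of Tnfsf11, 4.81 to 5.32, were not far above the guide to dim signal. How well its probe set reads the gene was not tested, so the narrow range need not mean even expression.

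The contrast between the luminal gates asks which of these genes followed Sca1. In mutant mice 6 of the 8 genes were called higher in Sca1-positive than in Sca1-negative luminal cells and none lower, where 3.66% of all genes were called in either direction. Msx2 was higher by 3.03 (SE 0.40, adjusted p = 0.000154), Pgr by 2.98 (SE 0.57, adjusted p = 0.00455), Cited1 by 2.64 (SE 0.51, adjusted p = 0.00506) and Foxa1 by 2.61 (SE 0.46, adjusted p = 0.0023). Esr1 was higher by 2.14 (SE 0.30, adjusted p = 0.000309), which is 4.40-fold, and Prom1 by 1.80 (SE 0.34, adjusted p = 0.00429). Gata3 differed by 0.21 (95% interval -0.61 to 1.03) and Tnfsf11 by 0.12 (-0.24 to 0.48). The median difference was 2.37 over the 8 genes and 0.00 over all genes.

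In control mice 3 of the 8 genes were called higher in Sca1-positive cells, where 3.69% of all genes were called. They were Foxa1, by 2.41 (SE 0.46, adjusted p = 0.00418), Prom1, by 1.94 (SE 0.34, adjusted p = 0.00225), and Esr1, by 1.60 (SE 0.30, adjusted p = 0.00408). Pgr differed by 1.82 (0.62 to 3.02, adjusted p = 0.0952), Cited1 by 1.25 (0.18 to 2.33, adjusted p = 0.24) and Msx2 by 1.15 (0.31 to 1.99, adjusted p = 0.144). With limma, 6 of the 8 had an unadjusted p under 0.05, against 3004 of all 19937 genes. When the fit held only the arrays of the 2 control luminal groups, Esr1, Foxa1 and Prom1 were no longer called (adjusted p = 0.19, 0.155 and 0.17), while Pgr (adjusted p = 0.0138) and Cited1 (adjusted p = 0.023) were. In the same restricted fit of the mutant luminal arrays, Esr1 and Msx2 kept their calls and Pgr, Foxa1, Prom1 and Cited1 did not, with adjusted p between 0.0634 and 0.171.

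A larger number of calls in mutant than in control mice is not itself a difference between the genotypes. The gap between the gates in mutant cells minus the gap in control cells was 1.88 for Msx2 (SE 0.57, adjusted p = 0.362), 1.38 for Cited1 (SE 0.73, adjusted p = 0.734), 1.15 for Pgr (SE 0.81, adjusted p = 0.821) and -0.14 for Prom1 (SE 0.48, adjusted p = 0.982). With limma, 0 of the 8 passed, 1 of them, Msx2, had an unadjusted p under 0.05, and 0.161% of all genes were called. An unadjusted p under 0.05 was reached by 1422 of all 19937 genes.

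**Figure D2:**
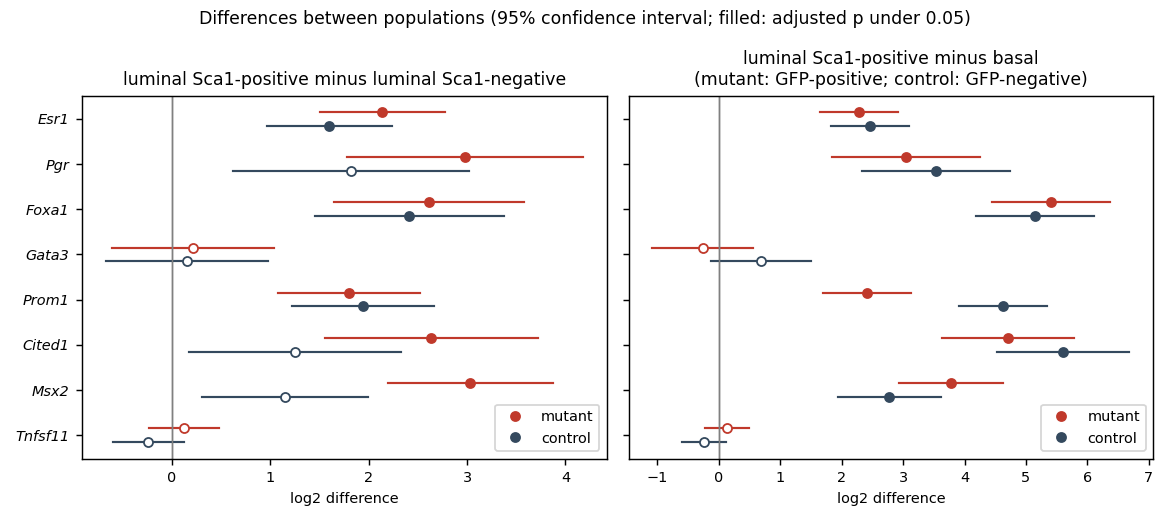
Log2 differences between populations for the 8 genes, mutant above control, with 95% confidence intervals on the horizontal axis; filled points passed the adjusted threshold. The left panel sets Sca1-positive against Sca1-negative luminal cells, and the right panel sets Sca1-positive luminal cells against basal cells. In the right panel 6 genes are higher in luminal cells in both genotypes, and Prom1 is higher by 2.42 in mutant and by 4.63 in control cells.

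Against basal cells, 6 of the 8 genes were called higher in Sca1-positive luminal cells in each genotype. In mutant mice, set against basal GFP-positive cells, Esr1, Pgr, Foxa1, Prom1, Cited1 and Msx2 were higher, with 9.72% of all genes called. The differences were 5.40 for Foxa1 (SE 0.46), 4.71 for Cited1 (SE 0.51), 3.78 for Msx2 (SE 0.40), 3.05 for Pgr (SE 0.57), 2.42 for Prom1 (SE 0.34) and 2.29 for Esr1 (SE 0.30), with adjusted p of at most 0.00119. In a fit of these 2 groups alone Pgr missed the threshold (adjusted p = 0.0515). In control mice, set against basal GFP-negative cells, they were 5.60 for Cited1, 5.14 for Foxa1, 4.63 for Prom1, 3.54 for Pgr, 2.78 for Msx2 and 2.46 for Esr1, with adjusted p of at most 0.000234 and 13.1% of all genes called. The mutant and control comparisons use different basal gates and are given side by side without a test.

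Fewer of the genes separated Sca1-negative luminal cells from basal cells. In mutant mice 2 of the 8 genes were called higher than in basal GFP-positive cells, with 7.86% of all genes called. These were Foxa1, by 2.79 (SE 0.46, adjusted p = 0.000422), and Cited1, by 2.07 (SE 0.51, adjusted p = 0.0149), a call that was lost without either of 2 mutant basal GFP-positive arrays or either of 2 mutant Sca1-negative arrays (1.62 to 1.83, adjusted p of 0.0739 to 0.101). Esr1 differed by 0.15 (-0.49 to 0.79) and Pgr by 0.07 (-1.13 to 1.27). In control mice 4 were called higher than in basal GFP-negative cells, with 9.83% of all genes called. These were Cited1, by 4.35 (SE 0.51, adjusted p = 1.12e-05), Foxa1, by 2.73 (SE 0.46, adjusted p = 0.000502), Prom1, by 2.69 (SE 0.34, adjusted p = 2.68e-05), and Msx2, by 1.63 (SE 0.40, adjusted p = 0.0128). The receptors were not called, though their control Sca1-negative arrays all lay above the control basal GFP-negative arrays. For Esr1, control Sca1-negative replicate 2, at 5.13, lay below the control basal GFP-positive arrays, 5.20 to 5.60. Pgr differed by 1.71 (0.51 to 2.91, adjusted p = 0.0687) and Esr1 by 0.86 (0.22 to 1.49, adjusted p = 0.0882). With dim genes left out Pgr passed (adjusted p = 0.0388). Without control Sca1-negative replicate 3, Msx2 was at 1.32 (adjusted p = 0.0741), and without replicate 2 Esr1 passed at 1.16 (adjusted p = 0.0267). The fit of the compared groups alone kept 1 call in mutant mice and 2 in control mice.

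The central comparison was between mutant and control cells of each gate. In the luminal gates mutant cells were GFP-positive and control cells GFP-negative, so genotype and GFP state cannot be told apart there. In Sca1-positive luminal cells Prom1 was the 1 gene of the 8 that was called, where 0.777% of all genes were called. It fell by 2.32 on the log2 scale in mutant cells (SE 0.34, adjusted p = 0.00113), to a mean of 6.24 ± 0.61 in mutant cells against 8.55 ± 0.60 in control cells (SD, n = 3 arrays each), which is 4.98-fold lower. The steroid receptors and the other genes of the programme did not pass. Esr1 differed by -0.12 (-0.76 to 0.51), Foxa1 by 0.21 (-0.75 to 1.18), Cited1 by 0.14 (-0.94 to 1.22), Gata3 by 0.17 (-0.65 to 0.99) and Tnfsf11 by 0.21 (-0.15 to 0.57), where the mutant arrays (4.97 to 5.09) lay above the control arrays (4.76 to 4.89). Msx2 differed by 0.67 (-0.17 to 1.52, adjusted p = 0.79) and Pgr by -0.88 (-2.07 to 0.32, adjusted p = 0.833). Without mutant replicate 1, the array with raised basal markers, Prom1 differed by -2.04 (adjusted p = 0.00907) and Pgr by -0.19, so that the difference in Pgr rested largely on that array.

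In Sca1-negative luminal cells Prom1 was again the 1 gene called, with 0.727% of all genes called. It fell by 2.17 (SE 0.34, adjusted p = 0.00296), to 4.44 ± 0.25 in mutant cells against 6.61 ± 0.83 in control cells (SD, n = 3 arrays each), and the mutant mean lay under the guide to dim signal of 4.60, so no fold is given. The mutant and control arrays also did not overlap for Pgr, Cited1 and Msx2. How many of all genes had arrays apart in this way was not counted, so the lack of overlap is only a description. Pgr differed by -2.03 (-3.23 to -0.83, adjusted p = 0.132), Cited1 by -1.25 (-2.33 to -0.17, adjusted p = 0.364) and Msx2 by -1.21 (-2.05 to -0.37, adjusted p = 0.233). None of these passed with all arrays, and Pgr passed at -2.68 (adjusted p = 0.0314) without mutant replicate 3. Esr1 differed by -0.66 (-1.29 to -0.02, adjusted p = 0.43) and Foxa1 by 0.02 (-0.95 to 0.98). The median difference over the 8 genes was -0.93, against -0.04 over all genes. With limma, 5 of the 8 genes had an unadjusted p under 0.05, against 2213 of all 19937 genes. These were Prom1, Pgr, Msx2, Cited1 and Esr1, all lower in mutant cells.

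The Prom1 calls rest on the spread shared by all 24 arrays. In a fit of the compared groups alone Prom1 differed by the same amount and was not called in Sca1-positive (adjusted p = 0.216) or Sca1-negative cells (adjusted p = 0.194). Under every other alternative it stayed called, and over all 14 alternatives the adjusted p ran from 0.000419 to 0.216 in Sca1-positive cells and from 0.00124 to 0.194 in Sca1-negative cells. The difference between the 2 decreases was -0.14 (-1.16 to 0.87), from which no likeness can be read, since the mutant Sca1-negative arrays were at or near the guide to dim signal.

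**Figure D3:**
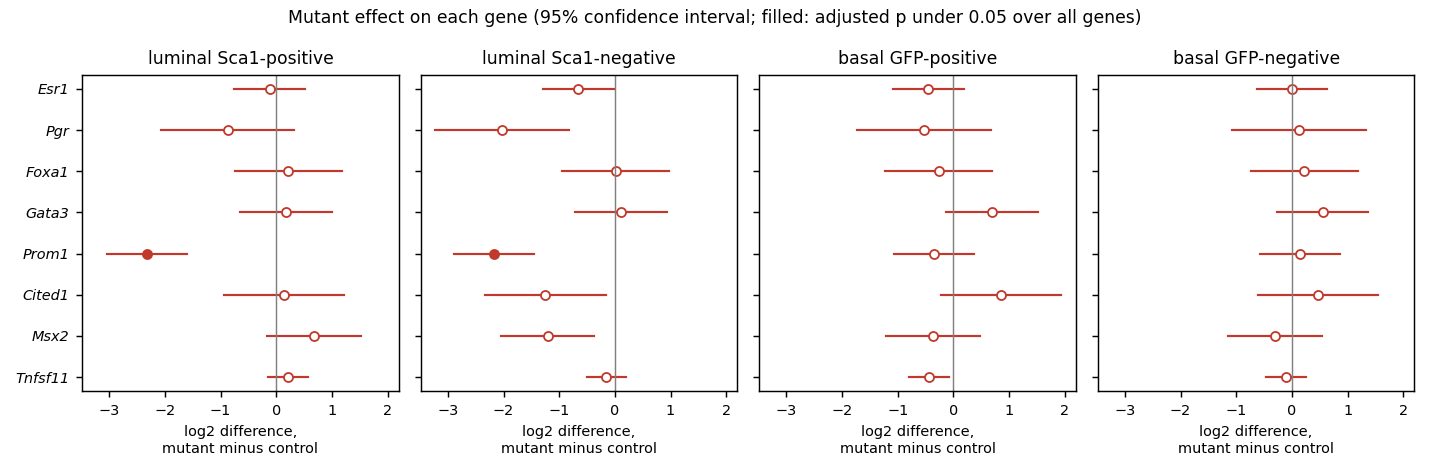
Log2 difference, mutant minus control, of each of the 8 genes in the 4 gates, with 95% confidence intervals; filled points passed the adjusted threshold. Prom1 is the filled point in both luminal gates, at -2.32 and -2.17, and no gene is filled in the basal gates.

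Other markers moved in the same luminal arrays. For genotype, 0.727% of all genes were called in Sca1-negative and 0.777% in Sca1-positive cells. An unadjusted p under 0.05 in limma was reached by 2213 of all 19937 genes in Sca1-negative and 1542 in Sca1-positive cells. In Sca1-negative cells 3 of 10 basal markers rose in mutant mice, namely the keratins Krt5 (3.29, adjusted p = 0.000572), Krt14 (2.46, adjusted p = 0.00571) and Krt17 (2.15, adjusted p = 0.00266), and the list median was 0.95. In Sca1-positive cells 0 of 10 basal markers passed in limma, 3 had an unadjusted p under 0.05, and the list median was 0.27. Of 8 luminal progenitor markers 1 rose there, Aldh1a3, a retinaldehyde dehydrogenase (2.57, adjusted p = 0.000125), while 6 of 8 had an unadjusted p under 0.05 and the list median was 1.60, with all 8 differences positive, and 0 of 8 passed in limma in Sca1-negative cells, where 2 had an unadjusted p under 0.05. Of 6 fibroblast markers 1 fell in each luminal gate, Dcn, the proteoglycan decorin, at 7.27 to 9.80 in mutant Sca1-positive cells, against 11.08 to 11.78 in control cells, and at 6.13 to 7.05 in mutant Sca1-negative cells, against 9.85 to 10.27 in control cells. The part of these markers in the values of Prom1 and Pgr was not tested. In Sca1-positive cells mutant replicates 2 and 3 had basal marker means within or just below the control range. Their luminal progenitor marker means, 8.27 and 7.66, lay above the control range of 6.59 to 6.999. These 2 arrays read 6.13 and 6.90 for Prom1, below all 3 control arrays. For Pgr they read 8.96 and 9.54, 1 of them below the control range. Of the leukocyte markers, Cd68, a lysosomal protein of phagocytes, rose by 1.52 in mutant Sca1-negative cells (adjusted p = 0.0431), whereas Ptprc, which encodes the CD45 antigen used for sorting, read 4.06, 4.14 and 3.97 in them, against 4.25, 4.21 and 4.47 in control cells.

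**Figure D4:**
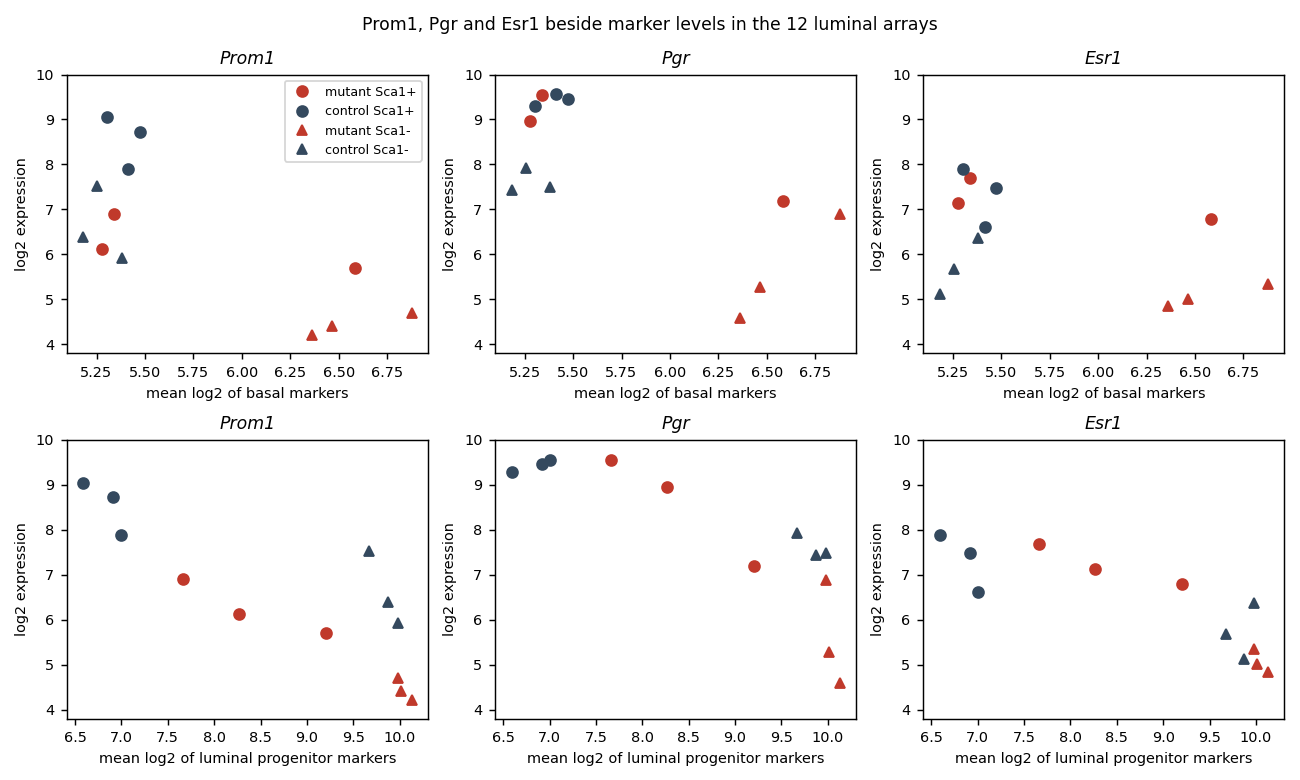
Log2 expression of Prom1, Pgr and Esr1 in the 12 luminal arrays against the mean log2 level of 10 basal markers (top) and 8 luminal progenitor markers (bottom). Circles are Sca1-positive and triangles Sca1-negative arrays. The 4 mutant luminal arrays with basal marker means of 6.36 to 6.88 include all 3 Sca1-negative arrays and Sca1-positive replicate 1.

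In basal cells none of the 8 genes was called for genotype. In GFP-positive cells 0 of 8 passed in limma, 1 of 8, Tnfsf11, had an unadjusted p under 0.05, and 12.6% of all genes were called. There 6337 of all 19937 genes had an unadjusted p under 0.05, a larger share than 1 of 8. Tnfsf11 read 4.89, 4.86 and 4.89 in mutant cells, against 5.65, 4.79 and 5.52 in control cells, a difference of -0.44 (SE 0.17, adjusted p = 0.0911). The lowest control array overlapped the mutant arrays, and without it the difference was -0.70 (adjusted p = 0.00204), so the call turned on 1 control array. Array weighting gave that array a weight of 0.42, the lowest of all, and also led to a call (-0.51, adjusted p = 0.0387). The control basal GFP-positive arrays were the least alike, with correlations between arrays of 0.9335 to 0.9405, against at least 0.9536 in every other group. Gata3 differed by 0.69 (-0.13 to 1.51) and Cited1 by 0.86 (-0.22 to 1.94) (mutant arrays 6.08, 6.50 and 8.37, control arrays 6.05 to 6.23). In GFP-negative basal cells 0 of 8 passed in limma, 0 of 8 had an unadjusted p under 0.05, and 0.0602% of all genes were called. An unadjusted p under 0.05 was reached there by 1258 of all 19937 genes. The largest difference there was 0.55 for Gata3 (-0.27 to 1.37).

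Between GFP-positive and GFP-negative basal cells 0 of 8 were called in mutant mice (2.51% of all genes called) and 0 of 8 in control mice (1.25% of all genes called). Counts of 0 of 8 are near these shares and say little about the 8 genes. An unadjusted p under 0.05 in limma was reached by 0 of 8 in either. It was reached by 2349 of all 19937 genes in mutant mice and by 3324 in control mice. Esr1 differed by 0.05 (-0.59 to 0.68) in mutant mice and by 0.50 (-0.14 to 1.13) in control mice, where the arrays did not overlap. The control Prom1 arrays also did not overlap (0.24, -0.48 to 0.96). All 8 differences were positive in control mice, where the median difference over all genes was 0.05. In mutant mice 3 were positive and 5 negative, and the median over all genes was -0.03. Over all genes, neither the share of positive differences nor the share with arrays apart was counted. Without 1 control GFP-positive array, replicate 2, Tnfsf11 was called in control mice at 0.53 (adjusted p = 0.0263). The genotype effect in GFP-positive minus that in GFP-negative basal cells was called for 0 of 8 genes, with 0 of 8 at an unadjusted p under 0.05 and 1.07% of all genes called. For that difference 2778 of all 19937 genes had an unadjusted p under 0.05.

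Around the receptors, 17 of 20 listed hormone targets and paracrine signals were measured. In Sca1-positive cells 1 rose and 1 fell in mutant mice, where 0.777% of all genes were called, with a median difference of 0.07. The gene that rose was Igfbp5, which encodes an insulin-like growth factor binding protein. It read 10.74, 8.99 and 8.46 in mutant cells, against 5.89, 6.05 and 5.64 in control cells, with no overlap and a difference of 3.53 (SE 0.41, adjusted p = 6.49e-05). The difference of Igfbp5 between Sca1-positive and Sca1-negative cells was -2.11 in mutant mice (SE 0.41) and -5.01 in control mice (SE 0.41). The gene that fell was Myb, a transcription factor of luminal cells and an oestrogen target, at 6.79, 6.99 and 7.45 in mutant cells, against 8.28, 7.98 and 7.82 in control cells (-0.95, SE 0.22, adjusted p = 0.0478). The Myb call was kept under 5 of 14 alternatives and the Igfbp5 call under 13 of 14. In basal GFP-positive cells, where 12.6% of all genes were called, Myb was instead called higher in mutant mice. The difference there was 0.65 to 0.92 under the alternatives, and the call was kept under 7 of 13.

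In Sca1-negative cells 1 of the 17 rose and 1 fell, where 0.727% of all genes were called, with a median of -0.09. Stc2, a secreted glycoprotein and oestrogen target, read 5.61, 6.04 and 7.92 in mutant cells, against 9.34, 8.04 and 9.90 in control cells, and fell by 2.57 (SE 0.51, adjusted p = 0.0188). The Stc2 arrays did not overlap, and the call was kept under 9 of 14 alternatives. Id2, a helix-loop-helix inhibitor, rose by 1.47 (SE 0.33, adjusted p = 0.0484), a call kept under 5 of 14. Wnt4, the progesterone-induced Wnt ligand, was higher in Sca1-positive than in Sca1-negative mutant cells by 1.30 (SE 0.26, adjusted p = 0.00726). Wnt4 read 6.61, 6.61 and 6.71 in mutant Sca1-positive cells, against 5.12, 5.58 and 5.33 in mutant Sca1-negative cells. In that contrast, where 3.66% of all genes were called, 4 of 17 were higher, among them Stc2, by 3.27, and Myb, by 1.22, and 1 was lower, Igfbp5. In control mice, where 3.69% of all genes were called, Myb, by 2.06, was the 1 target called higher in Sca1-positive cells and Igfbp5 the 1 called lower.

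In basal GFP-positive cells 3 of the 17 rose and 3 fell, where 12.6% of all genes were called, with a median of -0.04 against -0.10 over all genes. Among the 6, Tnfrsf11b, which encodes osteoprotegerin, the soluble decoy receptor of RANK ligand, fell by 1.504 on the log2 scale (SE 0.36, adjusted p = 0.0153), reading 4.66, 4.31 and 4.78 in mutant cells, against 5.99, 6.76 and 5.52 in control cells. Fst, encoding the activin antagonist follistatin, rose by 2.99 (SE 0.74, adjusted p = 0.0172), and Stat5a, a transcription factor activated by prolactin, fell by 0.88 (SE 0.23, adjusted p = 0.0202). In basal GFP-negative cells, where 0.0602% of all genes were called, 1 of 17 rose, Tnfrsf11a, which encodes RANK, the receptor of RANK ligand. Tnfrsf11a read 6.36, 5.70 and 7.10 in mutant cells, against 4.83, 4.85 and 5.21 in control cells, a difference of 1.42 (SE 0.24, adjusted p = 0.0324). The arrays did not overlap, but the call was kept under 6 of 14 alternatives, with adjusted p from 0.00185 to 0.935. Within mutant basal cells Tnfrsf11a was lower in GFP-positive than in GFP-negative cells by 1.82 on the log2 scale (SE 0.24, adjusted p = 0.000184), while Tnfsf11, its ligand, differed there by -0.07 (-0.43 to 0.29).

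**Figure D5:**
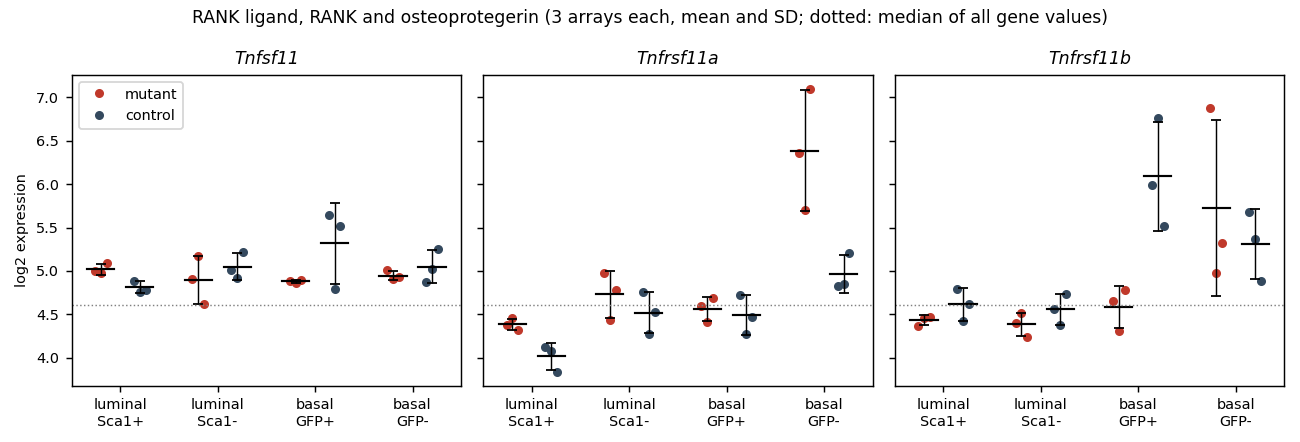
Log2 expression of RANK ligand (Tnfsf11), RANK (Tnfrsf11a) and osteoprotegerin (Tnfrsf11b) in the 24 arrays, mutant left of control in each population. Points are arrays and bars are means with SD (n = 3). RANK is highest in mutant basal GFP-negative cells, at 5.70 to 7.10. RANK ligand lies between 4.62 and 5.65 throughout, with population means not far above the guide to dim signal.

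Of 15 other nuclear receptors measured, of 16 listed, 0 passed in limma for the genotype difference in Sca1-positive, Sca1-negative or basal GFP-negative cells, where 1, 2 and 1 had an unadjusted p under 0.05. Over all 19937 genes, the counts at that unadjusted p were 1542, 2213 and 1258. In basal GFP-positive cells 2 of 15 rose, a share near the 12.6% of all genes called there. They were the glucocorticoid receptor Nr3c1 (1.42, SE 0.42, adjusted p = 0.0368) and the vitamin D receptor Vdr (1.36, SE 0.43, adjusted p = 0.0465), calls kept under 7 and 6 of 13 alternatives. Between the luminal gates 2 were called in mutant mice, where 3.66% of all genes were called. Rarg, a retinoic acid receptor, was higher by 0.66 and Nr3c1 lower by 1.79 on the log2 scale in Sca1-positive cells. These calls were kept under 6 and 10 of 14 alternatives. In control mice 0 were called and 3 had an unadjusted p under 0.05, against 3004 of all 19937 genes. Of 13 receptor cofactors and chaperones measured, of 16 listed, 0 passed in limma for genotype in Sca1-positive, Sca1-negative or basal GFP-negative cells, where 2, 1 and 1 had an unadjusted p under 0.05. In basal GFP-positive cells, with 12.6% of all genes called, 1 of 13 rose, Cited2, a transcriptional regulator related to Cited1, by 1.31 (SE 0.21, adjusted p = 0.00073). Cited2 ran against Cited1 between the luminal gates, being lower in Sca1-positive cells by 1.12 (SE 0.21, adjusted p = 0.00338) in mutant mice and by 1.62 (SE 0.21, adjusted p = 0.000113) in control mice.

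All 12 listed luminal transcription factors were measured. For genotype, Myb fell in Sca1-positive cells, where 0.777% of all genes were called. In limma 0 passed in Sca1-negative or basal GFP-negative cells, where 0.727% and 0.0602% of all genes were called. An unadjusted p under 0.05 was reached by 1 in each, against 2213 and 1258 of all 19937 genes. In basal GFP-positive cells, with 12.6% of all genes called, 3 rose, Myb among them, and 1 fell. Ehf, an epithelial ETS factor, rose there by 4.70 (SE 0.30, adjusted p = 1.47e-08) and Elf5, the ETS factor of alveolar progenitors, by 3.22 (SE 0.77, adjusted p = 0.0144). Tbx3, a T-box factor of the hormone-sensing lineage, fell by 1.28 (SE 0.33, adjusted p = 0.0211). Tbx3 was higher in Sca1-positive than in Sca1-negative luminal cells by 1.52 in mutant mice (SE 0.33, adjusted p = 0.0126) and by 1.34 in control mice (SE 0.33, adjusted p = 0.0292). The Tbx3 calls were kept under 10 of 14 alternatives in mutant mice and 7 of 14 in control mice.

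Genes with the most similar pattern were taken as those with the highest Pearson correlation over the 8 population means, among 5289 genes whose own means spanned at least 1. These are descriptions over 8 points that share arrays, and the highest of many values. For Esr1 they were Wnt4 (0.9925), Rnf208 and Capn8, for Pgr Abcc3 (0.9906), Capsl and Slc5a6, and for Foxa1 Nipal1 (0.9948), Krt4 and Tmem30b. For Prom1 they were R3hdml (0.9969), Cyp3a57 and Fam174b. Cyp3a57, a cytochrome P450, read 4.18, 6.48 and 7.14 in mutant Sca1-positive cells, against 8.80, 8.18 and 8.10 in control Sca1-positive cells, and R3hdml read 6.12, 7.14 and 7.14 in mutant cells, against 8.77, 8.25 and 9.16 in control cells. Both groups were thus apart for these genes as they were for Prom1, by which they had been selected. The most similar genes were, for Cited1 Shroom1 (0.9936), Morrbid and Ezr, and for Msx2 Fxyd2 (0.9899), Wnt7b and Wnt4. For Gata3 they were Urb2 (0.9793), Sdc1 and Enah, and Tnfsf11, whose means spanned less than 1, was left out.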

How the data were processed

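RNA of sorted mammary cells was read on 24 arrays, 3 for each of 8 groups. Per probe set, the authors deposited log2 intensities; the submitters' processing notes name affy. Their background correction, normalization and summarization are not given in the sources used here. The deposited values ran from 2.5856 to 13.5379, with array medians between 4.386 and 4.5537. Of 34760 probe sets, 21640 carried 1 symbol in the platform annotation and the other 13120 were left out. The probe set with the highest mean stood for each of 19937 genes. limma 3.58.1 in R 4.3.3 fitted the 8 group means to all genes, with 16 residual degrees of freedom and 14 contrasts. Its adjusted p-values use the Benjamini-Hochberg method within a contrast, at 0.05. The fitting step was tested on simulated data. The labels do not say that replicates shared mice or sortings by number, and the main fit left the number out. P-values measure the spread between pools. The genes, the lists of hormone targets, nuclear receptors, cofactors, luminal transcription factors and cell markers, and the rule for named genes (all 8 genes, the 3 most similar to each, and up to 4 called list genes with the smallest p in a comparison) were chosen with earlier results of these data known. Alternatives were quantile normalization, leaving out dim genes, averaged probe sets, smaller fits, array weights, a trended robust prior, a replicate block and leaving out each array. RefSeq promoters of GRCm38.p6 were searched for short strings.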

Additional observations from a re-analysis of the deposited data

How the results depend on the processing

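Over 14 comparisons of the 8 genes, 1640 values were recomputed under alternatives. Of these, 1612 kept their direction and side of the threshold or stayed uncalled, 18 lost a call, 10 gained one and 0 called values changed sign. Of the 1612, 67 changed sign where the gene was called in neither setting. Fitting only the compared groups, which leaves fewer arrays to estimate the spread, lowered the number of called genes for genotype to 0 in Sca1-positive and 0 in Sca1-negative luminal cells. It lowered the number to 2 for Sca1-positive against Sca1-negative cells in mutant mice, to 2 for control Sca1-negative against basal GFP-negative cells and to 1 for mutant Sca1-negative against basal GFP-positive cells. Array weights raised the count for genotype in basal GFP-positive cells to 1, and the cause was not tested. Leaving out 1 array at a time gave counts of 1 to 1 for genotype in Sca1-positive, 1 to 2 in Sca1-negative, 0 to 1 in basal GFP-positive and 0 to 0 in basal GFP-negative cells. Between the luminal gates the counts were 6 to 6 in mutant and 3 to 4 in control mice, the fourth being Msx2 without control Sca1-positive replicate 1 (1.60, adjusted p = 0.0335). Against basal cells they were 6 to 6 for Sca1-positive cells in both genotypes, and for Sca1-negative cells 1 to 2 in mutant and 3 to 5 in control mice. Between basal gates they were 0 to 0 in mutant and 0 to 1 in control mice, and for both differences of genotype effects 0 to 0.

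The labels do not say that replicate numbers pair arrays, and they were treated as unpaired. In 0 of 12 comparisons did every pair of equal numbers correlate over 0.1 in deviations from the group means (range -0.08 to 0.18). In the data, however, 20 of 24 arrays correlated best with arrays of their own number. Arrays of equal number may thus not be independent, which the main fit did not take into account. What they share was not tested. With the replicate block, Msx2 gained a call between the control luminal gates (1.15, adjusted p = 0.0421), which raised that count to 4, and the other counts kept their size.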
